A study of Mus musculus with 29 samples.

Results

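Messenger RNA of the mouse hippocampus was compared between obese mice that were switched to chow and obese mice that stayed on high-fat diet. The comparison used 8 of the 29 libraries of the series, 4 of them from mice on control chow (CC) and 4 from mice on continued high-fat diet (HFD). Of 24346 genes in the table, 12792 were compared, namely those with a mean FPKM of at least 1 over the 8 libraries whose symbol is not that of a Snora, Snord or Mir gene. FPKM divides a gene's sequenced fragments by its transcript length and by all mapped fragments of the library, so it measures a gene's level relative to the rest of its library.

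All mice were male C57BL/6J mice, and every one of them, chow controls included, first became obese over 10 weeks of high-fat feeding. The CC mice then had 4 weeks of chow with free access, and the HFD mice had 4 more weeks of free access to the high-fat diet. Another 7 hippocampal libraries came from mice that fasted every other day during those 4 weeks, 3 on chow (CC-IF) and 4 on high-fat diet (HFD-IF). They share the estimate of spread here and give a second diet contrast that uses none of the 8 libraries. No mice that had never eaten high-fat diet are among the groups compared, so a CC value shows the state after the switch and not that of a lean animal. No library dates from before the switch either, so a fall on chow and a rise on continued high-fat diet cannot be told apart. The submitters describe libraries of 1 group as biological replicates.

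The hippocampus serves spatial and episodic memory and is built of the dentate gyrus and the fields CA1 to CA3. The leptomeninges lie against it along its fissure, and the choroid plexus of the lateral ventricle is attached beside it, so a dissected hippocampus can carry either. Meningeal fibroblasts make collagens, small proteoglycans and prostaglandin D synthase, while the choroid plexus epithelium makes cerebrospinal fluid and secretes transthyretin, the product of Ttr. Class II molecules of the major histocompatibility complex (MHC) are made mainly by macrophages, dendritic cells and B cells, which in a healthy brain sit mostly in these borders. The leptin receptor, glucose transporters and mitochondrial genes are also of interest in a study of diet, and succinate, a metabolite that mitochondria oxidize, is named in the title of the series.

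The CC libraries held 17244 to 18057 genes above 0 and the HFD libraries 17202 to 17460. Depth is not stated, and reading low values as whole fragments gave estimates of 13.1 to 38.6 M fragments in CC libraries and 12.6 to 15 M in HFD libraries. These estimates are approximate, since 60% to 73.9% of the low values lay within 0.2 of a whole fragment, where 40% would by chance at a fixed depth. Each estimate was the best of many depths tried, so its own chance share is above 40%. Rn45s, the ribosomal RNA precursor, was above 0 in CC library 2, at 28980 FPKM, and in HFD libraries 0 and 2, at 25520 and 29310 FPKM. It was listed at 0 in the other 5 libraries. The 3 libraries with Rn45s above 0 had a median log2(FPKM + 1) of 3.10 to 3.13, against 3.23 to 3.25 in those with Rn45s at 0, so a typical gene reads lower in them. Ttr was above 1000 FPKM in CC library 2 and in HFD libraries 0, 2 and 3, and ranged from 14.2 to 74.1 FPKM in CC libraries 0, 1 and 3 and HFD library 1. Every difference between CC and HFD rests in part on these libraries. The counts, several lists and some of the leading genes are given with and without them. The columns number libraries from 0, and libraries are named by that number.

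Few hippocampal genes passed the test. Ptgds encodes the lipocalin-type prostaglandin D synthase, and H2-Aa the alpha chain of an MHC class II molecule. Both were lower in CC than in HFD, and no gene passed as higher in CC. These 2 of 12792 genes are 0.0156% of those tested (limma's moderated test on log2(FPKM + 1), Benjamini-Hochberg adjusted p under 0.05). At an unadjusted p under 0.05 there were 444 genes (3.47%), 279 higher (2.18%) and 165 lower (1.29%) in CC than in HFD. Neither call was made in the 8 libraries alone, with library medians equalized, with Rn45s as a term, with Snora, Snord and Mir genes kept, without the libraries with Rn45s above 0 or without those above 1000 FPKM of Ttr. The count of 444 also depended on single libraries: it was 827 without CC library 2 (614 higher), 751 without HFD library 1, 302 without CC library 0 and 294 without CC library 1. All 4 CC values lay above all 4 HFD values for 226 genes (1.77%) and below them for 93 (0.727%). The split between higher and lower depends on scaling: with the library medians equalized it was 150 higher and 277 lower, with quantile normalization 191 and 208, with Rn45s as a term 417 and 281, and without the libraries with Rn45s above 0 it was 283 and 189. For 11850 genes (92.6%) the 95% confidence interval of the log2 change lay within plus or minus 0.5, and for 12675 (99.1%) within plus or minus 1. The median standard error was 0.103.

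The libraries carried the markers of their labelled tissue. All 24 markers of the dentate gyrus and of CA1, CA2 and CA3 were kept, their median log2 change was 0.035 against 0.0393 over all genes, and none had an unadjusted p under 0.05. Without the libraries above 1000 FPKM of Ttr that median was -0.0926. Prox1, a transcription factor that marks dentate granule cells, had 23.9 to 27.3 FPKM in CC libraries and 21.1 to 29.3 FPKM in HFD libraries. Wfs1, a marker of CA1 pyramidal cells, had 23.3 to 30.2 FPKM in CC libraries and 29.1 to 39 FPKM in HFD libraries. Alb, the albumin gene of hepatocytes, did not exceed 0.0535 FPKM in a CC library or 0.111 FPKM in an HFD library. Of 15 measured markers of neighbouring cortex, thalamus, striatum and habenula, 11 were lower in CC, and 33% of all genes were lower. Fezf2, a transcription factor of deep cortical layers, was higher at an unadjusted p under 0.05, and Lef1, a transcription factor of the thalamus, was lower. HFD library 3 held 16 FPKM of Tac2, a neuropeptide gene of the habenula, where the other 7 libraries held 0.942 to 3.27.

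**Figure D1:**
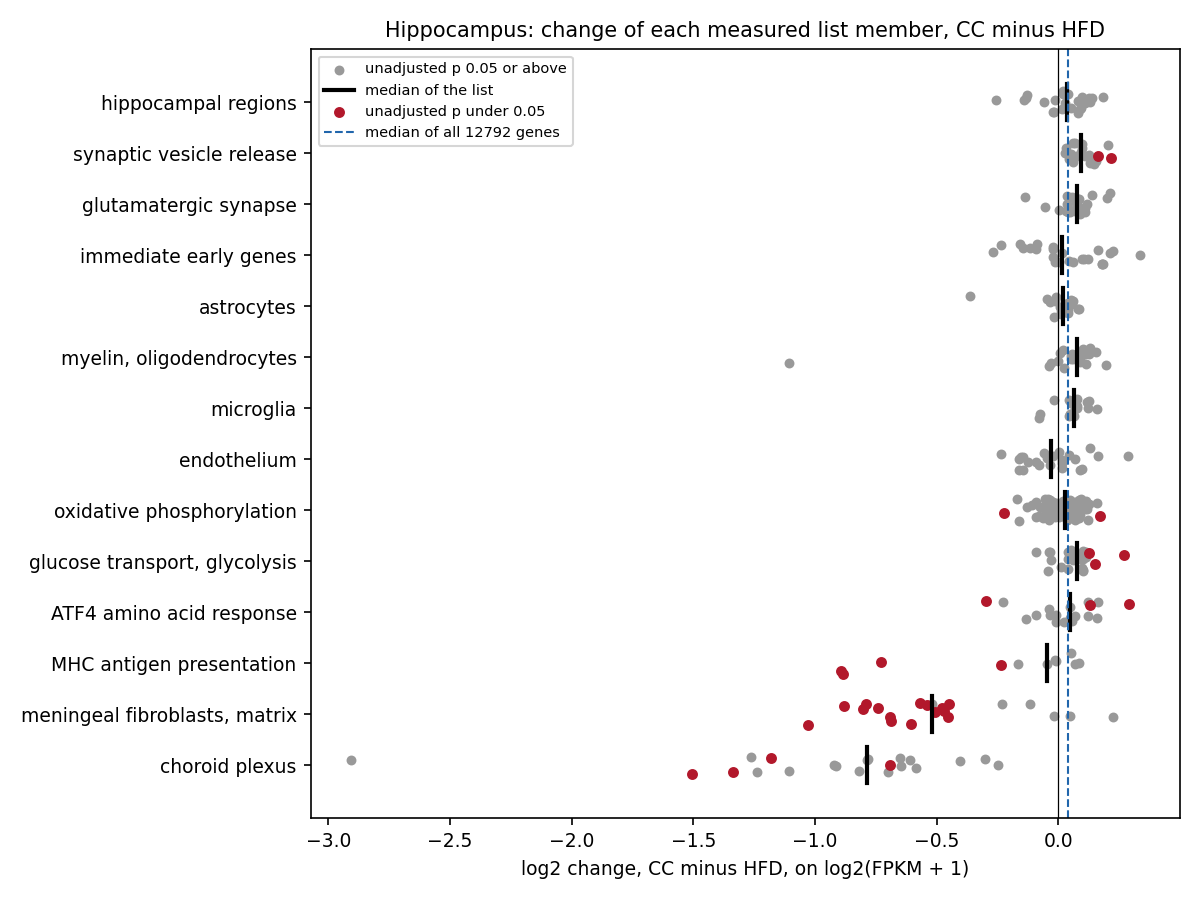
Log2 change, CC minus HFD, of each measured member of 14 gene lists (points), on the log2(FPKM + 1) scale, with each list's median as a black bar and the median of all 12792 genes as a dashed line at 0.0393. Red points have an unadjusted p under 0.05; meningeal, choroid plexus and some MHC genes lie to the left, and the neuronal, glial and metabolic lists lie close to the dashed line.

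Genes of meningeal fibroblasts and their matrix were lower in CC than in HFD. Of the 24 on the list, 21 were kept by the filter, with a median log2 change of -0.52. Of these, 19 had a log2 change below 0, where 33% of all genes did. An unadjusted p under 0.05 was reached by 15, all lower, where 1.29% of all genes were lower at that level. For 8 of them the groups did not overlap, where 0.727% of all genes had that pattern. The lists were chosen with earlier results of these data known. Shares set beside those of all genes thus describe a list and do not test it. Ptgds alone passed the adjusted threshold. Crabp2, Col3a1 and Slc22a6 were on the list and fell below the filter.

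Ptgds lies on chromosome 2 (GRCm38, 25466709 to 25470046, minus strand) and makes prostaglandin D2 from prostaglandin H2. Its product is also secreted into cerebrospinal fluid as a carrier of small lipids, and oligodendrocytes make it as well as the meninges. Ptgds had 196, 224, 259.7 and 199 FPKM in CC libraries 0 to 3, against 499, 558, 436 and 328 FPKM in HFD libraries 0 to 3. The lowest HFD library stood above the highest CC library. The means were 219.7 ± 29.6 FPKM in CC and 455 ± 98.4 FPKM in HFD (SD, n = 4 each). The log2 change was -1.03 ± 0.15 (standard error), with a 95% confidence interval from -1.35 to -0.71 and an adjusted p of 0.0446 in limma. Oligodendrocyte genes had a median log2 change of 0.0777, and 21 of 24 were higher in CC, where 67% of all genes were. None had an unadjusted p under 0.05, and the list summed to 1581 to 2328 FPKM in CC and 1469 to 2122 FPKM in HFD. The median was 0.258 without the libraries with Rn45s above 0 and 0.327 without those above 1000 FPKM of Ttr. The part of oligodendrocytes in the Ptgds difference was not tested.

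Type I collagen and several proteoglycan genes had lower values in CC, and none of them passed the adjusted threshold. Col1a2, a chain of type I collagen, had 1.37, 1.74, 1.52 and 1.09 FPKM in CC libraries, against 3.21, 2.62, 2.72 and 2.22 FPKM in HFD libraries. Its groups did not overlap, and its log2 change was -0.60 ± 0.10 (adjusted p = 0.0868, limma). Col1a1, the partner chain, had 0.916 to 1.6 FPKM in CC and 1.62 to 2.58 FPKM in HFD. Lum encodes lumican, a keratan sulfate proteoglycan that spaces collagen fibrils. It had 0.654, 0.944, 1.38 and 0.601 FPKM in CC libraries and 3.13, 1.59, 1.73 and 2.28 FPKM in HFD libraries. Fmod, fibromodulin of the same proteoglycan family, had 0.977 to 1.21 FPKM in CC and 1.76 to 2.06 FPKM in HFD. Dcn, decorin, overlapped between groups, with 4.16 to 10.9 FPKM in CC and 7.1 to 16.6 FPKM in HFD. The members without a lower value were Col6a1, at 2.52 to 4.76 FPKM in CC and 2.3 to 5.14 FPKM in HFD, and Nupr1, at 3.52 to 6.43 FPKM in CC and 3.73 to 6.19 FPKM in HFD. Over all 17 collagen genes kept, a group chosen after their values were seen, the median log2 change was -0.0703, with 10 below 0 and 7 above. The groups did not overlap for 3 lower members, Col1a1, Col1a2 and Col9a2, where 0.727% of all genes were lower in this way. The same held for 2 higher ones, Col4a1 and Col4a2, the main chains of vascular basement membrane, where 1.77% of all genes were higher.

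Secreted and transport genes of the meninges were lower as well. Serping1, the inhibitor of complement C1, had 1.15, 1.98, 2.47 and 1.55 FPKM in CC libraries, against 4.55, 4.49, 3.52 and 2.83 FPKM in HFD libraries, with no overlap. Its log2 change was -0.80 ± 0.15 (adjusted p = 0.201, limma). Slc6a20a, a transporter of proline and other imino acids, had 2.43, 2.77, 3.95 and 2.63 FPKM in CC libraries, against 5.99, 5.65, 4.36 and 5.28 FPKM in HFD libraries. The groups did not overlap, and the log2 change was -0.69 ± 0.13 (adjusted p = 0.187, limma). Islr, a secreted leucine-rich repeat protein of mesenchymal cells, had 4.14 to 5.06 FPKM in CC and 5.2 to 8.58 FPKM in HFD. Aldh1a2, the retinoic acid synthesizing enzyme of the meninges, overlapped at 0.852 to 1.59 FPKM in CC and 1.46 to 2.81 FPKM in HFD. In bulk tissue, fewer meningeal cells and less RNA per meningeal cell cannot be told apart.

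Choroid plexus genes differed widely between libraries of the same diet. All 21 measured members had a log2 change below 0, with a median of -0.784, and 4 had an unadjusted p under 0.05, but the groups overlapped for every member. Ttr had 14.2, 16.6, 1615 and 74.1 FPKM in CC libraries 0 to 3, against 1744, 33.5, 1372 and 1246 FPKM in HFD libraries 0 to 3. One CC library and 3 HFD libraries were thus high, and the others low. Kl, which encodes klotho, followed the same libraries, with 20.3 FPKM in CC library 2 and 5.2 to 5.88 in the other CC libraries, against 6.22 FPKM in HFD library 1 and 16 to 19.2 in the other HFD libraries. The list summed to 64.6 to 1947 FPKM in CC and 90.9 to 2092 FPKM in HFD. Igf2, made by meninges and choroid plexus alike, went with Ttr at 6.76, 7.19, 23.3 and 7.08 FPKM in CC libraries and 23.6, 9.93, 19.1 and 19.7 FPKM in HFD libraries.

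Meningeal values can be set beside Ttr library by library. A score for each library was taken as the median over the list of log2(FPKM + 1) minus the mean of the 8 libraries. The meningeal score was -0.498, -0.208, -0.00219 and -0.448 in CC libraries 0 to 3, against 0.483, 0.247, 0.219 and 0.112 in HFD libraries 0 to 3. Among the libraries with low Ttr, the single HFD library, library 1, had 0.247 and CC libraries 0, 1 and 3 had -0.498 to -0.208. Among those with high Ttr, HFD libraries 0, 2 and 3 had 0.112 to 0.483 and CC library 2 had -0.00219. The scores did not overlap between CC and HFD, so any split by Ttr places HFD above CC. The split therefore cannot show whether choroid plexus has a part in the meningeal difference. Without the libraries above 1000 FPKM of Ttr, a setting chosen after seeing the data that leaves 1 HFD library, the list's median log2 change was -0.584 and that of the choroid plexus list -0.12. Without the libraries with Rn45s above 0 the meningeal median was -0.528 and that of the choroid plexus list -0.873. The log2 change of Ptgds was -1.43 without the libraries above 1000 FPKM of Ttr and -1.05 without those with Rn45s above 0. The part of admixed choroid plexus in the remaining differences was not tested.

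**Figure D2:**
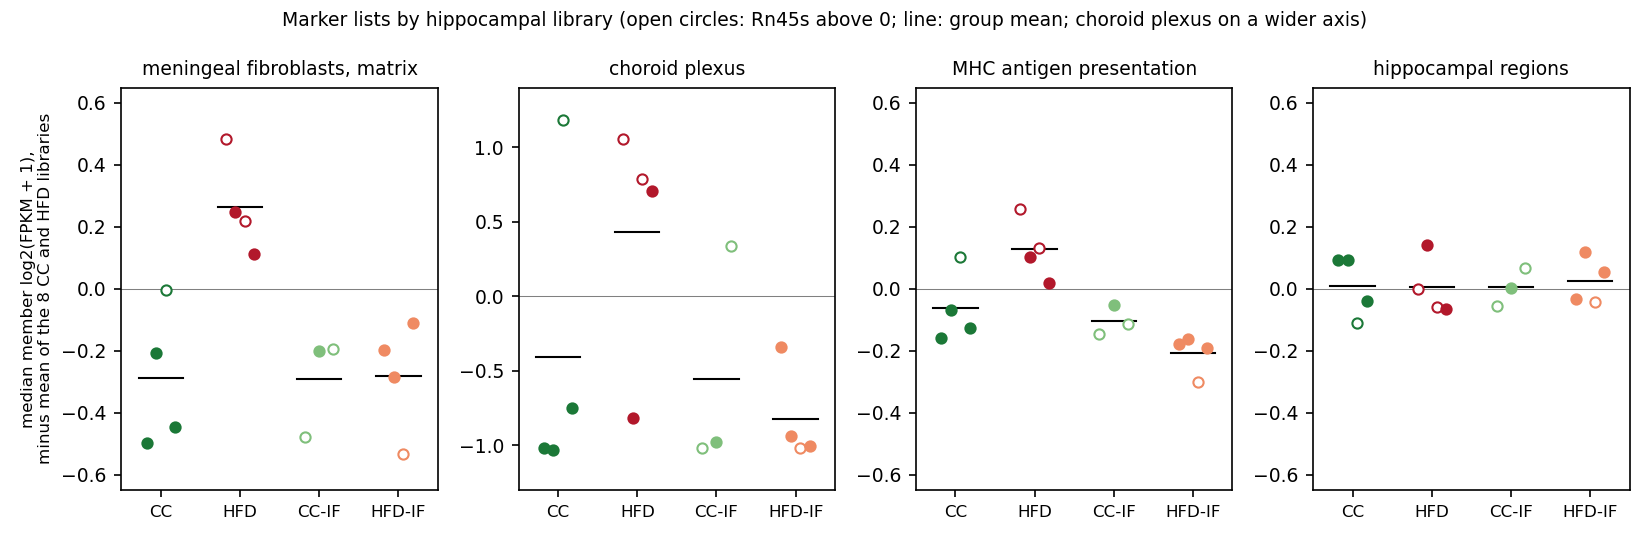
Scores of 4 marker lists in each hippocampal library (points; black line, group mean; open circles, Rn45s above 0), given as the median member log2(FPKM + 1) minus the mean of the 8 CC and HFD libraries. The HFD libraries lie above 0 for the meningeal list, at 0.112 to 0.483, and the CC, CC-IF and HFD-IF libraries at or below -0.00219; choroid plexus scores split within CC and within HFD, and hippocampal region scores lie near 0 in every group.

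Among MHC class II genes H2-Aa passed the adjusted threshold as lower in CC, and H2-Ab1 and Cd74 had lower means without passing it. These molecules show peptides to CD4 T cells, and their genes share a promoter module of X and Y boxes that the factors RFX, NF-Y and the coactivator CIITA use. The 250 bases before the start of H2-Aa and H2-Eb1 are shown because that module is the feature the class II genes have in common; the sequences are those of RefSeq on GRCm38.p6, and the table held 2 of the 3 class II genes looked up. H2-Ab1 was the other. Capitals mark the X1 core, searched as CTNGCAACT, and the Y box, searched as CTGATTGG, each on both strands.
H2-Aa, chr17:34287824-34288073, minus strand: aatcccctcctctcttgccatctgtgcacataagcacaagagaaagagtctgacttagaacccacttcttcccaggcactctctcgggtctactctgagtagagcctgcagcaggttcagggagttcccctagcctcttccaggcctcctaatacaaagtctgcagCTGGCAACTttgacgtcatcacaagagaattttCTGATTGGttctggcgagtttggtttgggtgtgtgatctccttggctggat
H2-Eb1, chr17:34305617-34305866, plus strand: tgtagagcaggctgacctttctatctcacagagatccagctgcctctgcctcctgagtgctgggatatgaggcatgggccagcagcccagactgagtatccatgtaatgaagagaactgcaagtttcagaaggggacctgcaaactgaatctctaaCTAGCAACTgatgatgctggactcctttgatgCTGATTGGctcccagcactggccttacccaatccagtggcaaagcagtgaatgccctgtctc
The X1 core begins 84 bases before the start in H2-Aa and 94 in H2-Eb1, and the Y box 51 and 62 bases before it. Of 32851 RefSeq promoter windows of this length, 1258 (3.83%) held the Y box, 256 (0.779%) the X1 core and 13 (0.0396%) both. A match describes the letters and does not show that a factor bound there.

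H2-Aa had 0.57, 0.257, 0.519 and 0.288 FPKM in CC libraries 0 to 3, against 2.005, 1.2, 1.95 and 1.285 FPKM in HFD libraries 0 to 3. The groups did not overlap, and all CC values were under 1 FPKM, where few fragments are counted. The mean of H2-Aa was 0.409 FPKM in CC and 1.61 FPKM in HFD, and that of H2-Ab1 0.493 and 1.53 FPKM. Both thus passed the filter of 1 FPKM only through the HFD libraries, and with a filter above 0 H2-Aa was not called. The log2 change of H2-Aa was -0.88 ± 0.14, with a 95% confidence interval from -1.17 to -0.59 and an adjusted p of 0.0486 in limma. The scale understates changes of low genes. H2-Ab1, the beta chain of the same molecule, had 0.292, 0.565, 0.664 and 0.452 FPKM in CC libraries, against 1.74, 1.2, 2.37 and 0.81 FPKM in HFD libraries, with no overlap (log2 change -0.73 ± 0.18, adjusted p = 0.622, limma). Cd74, the invariant chain that guides class II molecules to the endosome, had 0.843, 1.03, 2.6 and 0.769 FPKM in CC libraries, against 3.23, 2.29, 3.14 and 3.94 FPKM in HFD libraries. CC library 2 lay inside the HFD range, and the log2 change was -0.89 ± 0.19 (adjusted p = 0.362, limma). H2-Eb1, with a mean under the filter, had 0.236, 0.0914, 0.953 and 0.339 FPKM in CC libraries and 0.637, 0.812, 0.739 and 1.13 FPKM in HFD libraries. Ciita was also under the filter, at 0.249 to 0.513 FPKM in CC and 0.51 to 0.595 FPKM in HFD. The log2 changes of H2-Aa, H2-Ab1 and Cd74 were -0.72, -0.48 and -1.10 without the libraries with Rn45s above 0, and -0.69, -0.62 and -0.81 without those above 1000 FPKM of Ttr.

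Class I genes and antigen processing genes had smaller log2 changes. Over the 11 measured genes of the MHC list the median log2 change was -0.0443. It was -0.146 without the libraries with Rn45s above 0 and -0.166 without those above 1000 FPKM of Ttr. The 4 genes with an unadjusted p under 0.05 were Cd74, H2-Aa, H2-Ab1 and Tapbp, all lower. Tapbp, tapasin, which loads peptide onto class I, had 7.93 to 8.77 FPKM in CC and 8.91 to 11.1 FPKM in HFD, with no overlap. B2m, the light chain of class I, had 37.6 to 48.6 FPKM in CC and 34.8 to 48.1 FPKM in HFD. H2-K1, H2-D1 and H2-Q4 belong to a family of near-identical genes whose reads may be split uncertainly, and their log2 changes were -0.17, -0.04 and -0.01. Of 21 microglial markers none had an unadjusted p under 0.05 and 18 were higher in CC, where 67% of all genes were. Their median log2 change was 0.0633 (-0.0262 without the libraries above 1000 FPKM of Ttr). Among markers of border macrophages, Mrc1 had 0.301 to 0.583 FPKM in CC and 0.407 to 0.932 FPKM in HFD, Cd163 0.134 to 0.34 and 0.151 to 0.468 FPKM, and Pf4 0.254 to 1.23 and 0.428 to 1.73 FPKM, all below the filter and overlapping. Whether more border cells or more class II RNA per cell accounts for the HFD values was not tested.

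**Figure D3:**
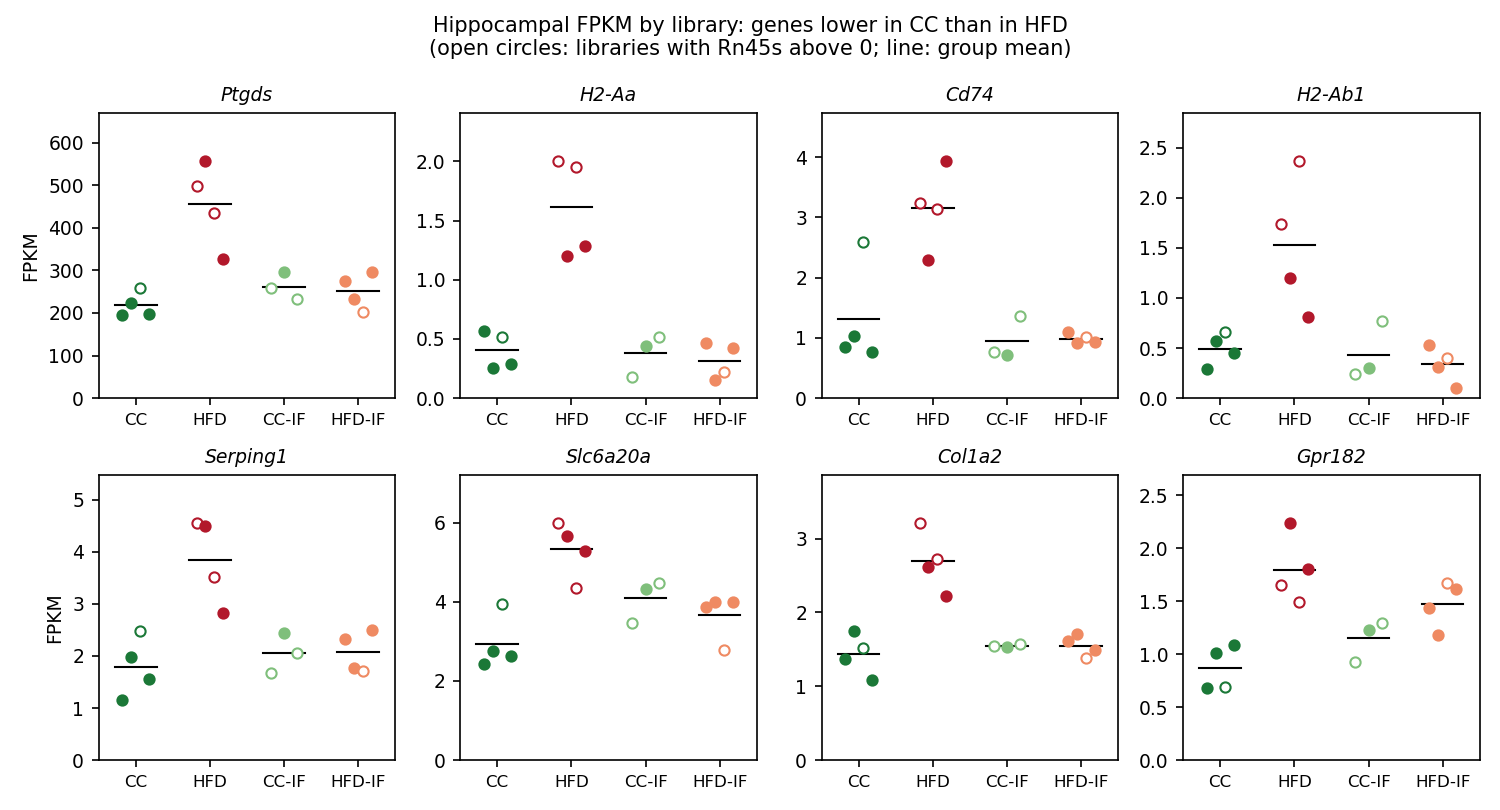
FPKM of 8 genes lower in CC than in HFD, by hippocampal library (points; black line, group mean; open circles, Rn45s above 0; all axes start at 0). The HFD libraries stand apart for most of these genes, with Ptgds at 328 to 558 FPKM in HFD against 196 to 259.7 FPKM in CC, while CC-IF and HFD-IF libraries lie at or near the CC values except for Slc6a20a and Gpr182, where several lie between CC and HFD; CC library 2 reaches the HFD range for Cd74.

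CC and HFD values did not overlap for the called genes or for the meningeal score, so any split of the 8 libraries keeps their direction. A split by Rn45s state therefore cannot show what part Rn45s has in these differences, and its values are given as description. Among the libraries with Rn45s above 0, Ptgds had 259.7 FPKM in CC against 499 and 436 FPKM in HFD, and H2-Aa 0.519 FPKM in CC against 2.005 and 1.95 FPKM in HFD. Among those with Rn45s at 0, Ptgds had 196, 224 and 199 FPKM in CC against 558 and 328 FPKM in HFD, and H2-Aa 0.57, 0.257 and 0.288 FPKM in CC against 1.2 and 1.285 FPKM in HFD. The calls themselves were near the threshold. In the 8 fits that left out 1 library each, Ptgds kept its call only without CC library 2 and without HFD library 3, and H2-Aa only without CC library 2. Without CC library 2 there were 6 calls, which added Serping1, Slc6a20a, Cd74 and Slc13a4, a sulfate transporter of the meninges, with log2 changes of -0.92, -0.80, -1.13 and -1.26.

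Other genes among the 12 with the lowest log2 change whose groups did not overlap were Gpr182, Coch, Tmem170 and Olfr239. Gpr182, an endothelial scavenging receptor for chemokines, had 0.679, 1.02, 0.691 and 1.09 FPKM in CC libraries, against 1.66, 2.24, 1.49 and 1.8 FPKM in HFD libraries (log2 change -0.58 ± 0.11, adjusted p = 0.218, limma). Coch, the secreted protein cochlin, had 0.79 to 1.66 FPKM in CC and 2.33 to 2.74 FPKM in HFD. Tmem170 had 0.87 to 1.59 FPKM in CC and 2.03 to 2.41 FPKM in HFD, and Olfr239, a gene of the olfactory receptor family, 1.72 to 2.34 and 2.62 to 5.19 FPKM. None of 24 endothelial and blood-brain barrier genes reached an unadjusted p under 0.05. Reactive astrocytes had 6 measured genes, and of these Cp, which encodes ceruloplasmin, and Vim, vimentin, were lower at an unadjusted p under 0.05. Cp had 1.64 to 2.45 FPKM in CC and 2.48 to 3.61 FPKM in HFD. Vtn, vitronectin of pericytes, had 19.5 to 22.3 FPKM in CC and 22.5 to 26.8 FPKM in HFD, without overlap.

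No gene higher in CC passed the adjusted threshold. All 20 measured genes of synaptic vesicle release had a log2 change above 0, with a median of 0.0953 against 0.0393 over all genes, and 33% of all genes were below 0. The median was 0.0601 with library medians equalized, where that of all genes was 0.00408. Syn2 and Cplx2 had an unadjusted p under 0.05, and the groups did not overlap for 3 members (1.77% of all genes were higher in this way), Bsn and Syn1 among them. The list's median was 0.0807 without the libraries with Rn45s above 0 and 0.141 without those above 1000 FPKM of Ttr. Syn2, which encodes synapsin II and tethers vesicles to actin, had 141, 158, 130.4 and 148 FPKM in CC libraries and 118, 124, 116 and 136 FPKM in HFD libraries. Its ranges overlapped, and its log2 change was 0.22 ± 0.07 (adjusted p = 0.993, limma). Of 26 genes of the glutamatergic synapse 24 were above 0, and of 23 of interneurons and GABA receptors 20, with none at an unadjusted p under 0.05 in either list. The glutamatergic median was 0.0791, and -0.0261 without the libraries above 1000 FPKM of Ttr. Immediate early genes, which report recent neuronal activity, were split, with 14 of 25 above 0 and none at an unadjusted p under 0.05. Fos had 5.88 to 8.78 FPKM in CC and 6.57 to 9.17 FPKM in HFD.

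Slc2a3 was the clearest gene of glucose use. It encodes GLUT3, the main glucose transporter of neurons, and had 24.2, 24.5, 24.4 and 25.8 FPKM in CC libraries, against 18.8, 20.6, 19.2 and 22.9 FPKM in HFD libraries. The groups did not overlap, and the log2 change was 0.27 ± 0.06 (adjusted p = 0.609, limma). Slc2a1, the transporter of endothelium and glia, overlapped at 14.8 to 19.7 FPKM in CC and 16.9 to 20.6 FPKM in HFD. Glucose transport and glycolysis counted 25 measured genes, of which 20 had a log2 change above 0 and 3 reached an unadjusted p under 0.05, all higher, where 67% of all genes were above 0 and 2.18% were higher at that level. The list's median of 0.0778 was 0.0424 without the libraries with Rn45s above 0 and 0.0543 without those above 1000 FPKM of Ttr, and the log2 change of Slc2a3 was then 0.19 and 0.26. The others were Pgam1, phosphoglycerate mutase, and Pdk2, a kinase that restrains pyruvate dehydrogenase, which had 30.5 to 35.2 FPKM in CC and 27.6 to 30.9 FPKM in HFD. Of 9 measured genes of ketone body use, 4 were above 0.

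Several of the 12 genes with the highest log2 change and no overlap encode mitochondrial proteins. Nudt8, a mitochondrial hydrolase of coenzyme A in mice, had 3.7, 3.54, 3.38 and 4.18 FPKM in CC libraries, against 2.06, 2.19, 2.89 and 1.8 FPKM in HFD libraries (log2 change 0.55 ± 0.13, adjusted p = 0.609, limma). Oxld1 had 4.16, 3.93, 4.68 and 4.26 FPKM in CC libraries, against 2.48, 2.39, 3.33 and 2.28 FPKM in HFD libraries (log2 change 0.55 ± 0.12, adjusted p = 0.362, limma). Mrps16, of the small subunit of the mitochondrial ribosome, had 17.2, 18.3, 16.8 and 16.9 FPKM in CC libraries, against 12.4, 14.9, 13 and 11.8 FPKM in HFD libraries. Mrpl22, of the large subunit, had 11.3 to 13.6 FPKM in CC and 8.65 to 10.8 FPKM in HFD. Over all 77 mitochondrial ribosomal genes kept, a group chosen after these values were seen, the median log2 change was 0.0647, 55 were above 0, and 4 did not overlap between groups, all higher, against 67% above 0 and 1.77% over all genes. Without the libraries with Rn45s above 0 the log2 changes of Nudt8, Oxld1 and Mrps16 were 0.68, 0.62 and 0.37, and without those above 1000 FPKM of Ttr they were 0.59, 0.59 and 0.21. Rab26os, an RNA opposite Rab26, had the highest log2 change of this set at 0.89 ± 0.22, with 16.9 to 24.2 FPKM in CC and 5.79 to 15 FPKM in HFD. The log2 change of Rab26os was 0.52 without the libraries with Rn45s above 0 and 0.34 without those above 1000 FPKM of Ttr. Whether fragments were counted by strand is not given, so its reads and those of its partner cannot be told apart. The others were Lurap1l, Stk19, Dnajc24, Car4, Kcnq5, Ly6e and Med9, with log2 changes of 0.28 to 0.38. Among these, Kcnq5, a subunit of the potassium channels of the M current, had 10.9 to 13.1 FPKM in CC and 8.4 to 10.6 FPKM in HFD.

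**Figure D4:**
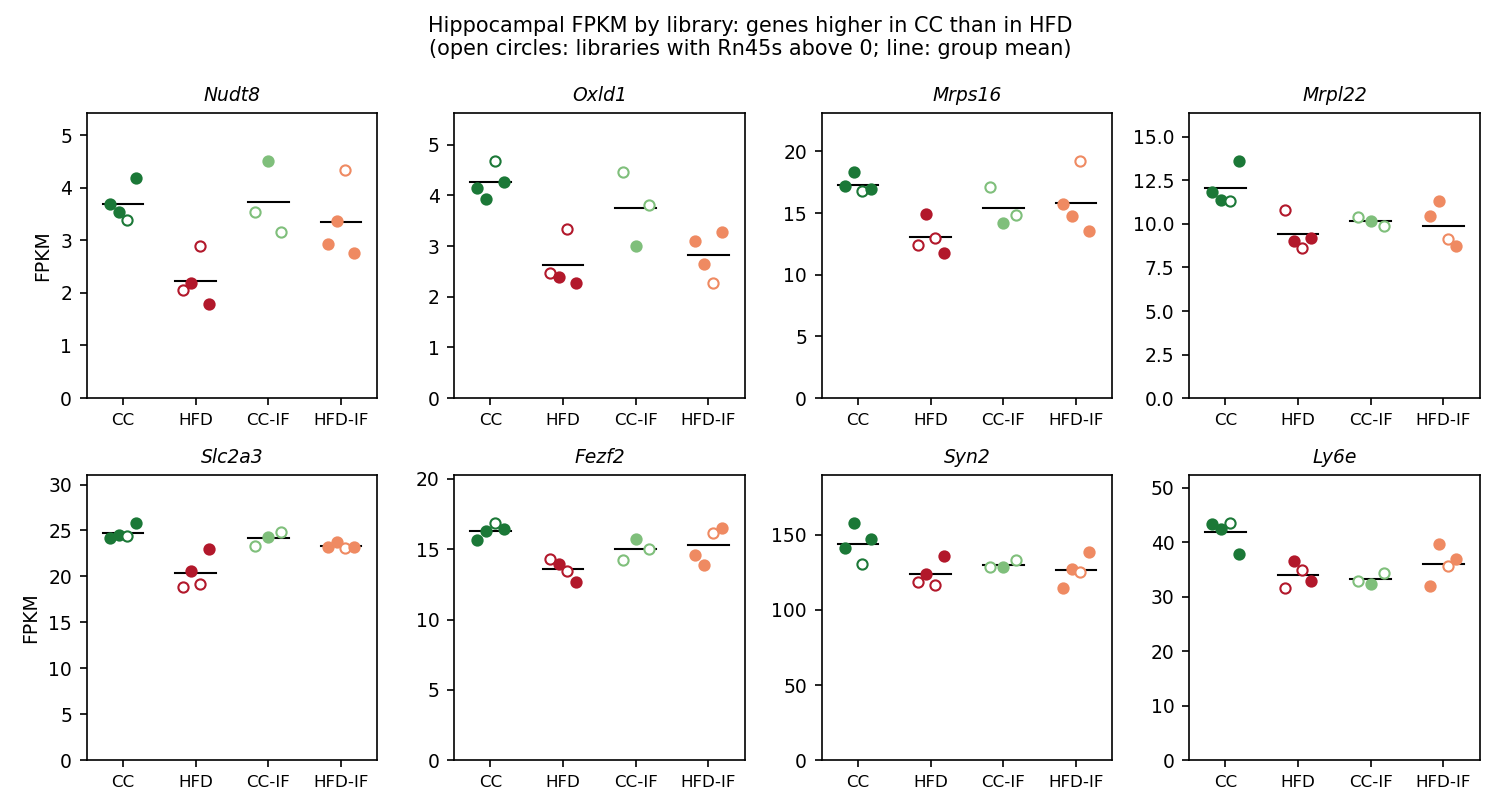
FPKM of 8 genes higher in CC than in HFD, by hippocampal library (points; black line, group mean; open circles, Rn45s above 0; all axes start at 0). CC libraries lie above HFD libraries without overlap for 7 of them, such as Slc2a3 at 24.2 to 25.8 FPKM in CC against 18.8 to 22.9 FPKM in HFD, and overlap for Syn2; CC-IF and HFD-IF libraries mostly overlap each other.

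Genes of succinate metabolism overlapped between CC and HFD, with 1 exception. Sucnr1, the succinate receptor, was listed at 0 in all 8 libraries. Succinate dehydrogenase oxidizes succinate to fumarate, and all of its subunit genes overlapped between groups. Sdha had 92.7 to 108 FPKM in CC and 88.5 to 108 FPKM in HFD, and Sdhb 45.3 to 52.5 and 44.7 to 47.7 FPKM. Sdhc had 43.6 to 48.5 FPKM in CC and 39.7 to 44.6 FPKM in HFD, and Sdhd 27.6 to 32.1 and 27.2 to 30.9 FPKM. Their log2 changes were 0.08, 0.08, 0.12 and 0.02, and that of Sdhd turned negative when library medians were equalized. Slc25a10, the mitochondrial dicarboxylate carrier, had 1.24 to 1.75 FPKM in CC and 1.32 to 2 FPKM in HFD. Aldh5a1, which turns succinic semialdehyde into succinate, had 14.6 to 16.3 FPKM in CC and 13.7 to 16.4 FPKM in HFD. The exception was Slc13a3, the only gene with an unadjusted p under 0.05 among 17 of succinate and the GABA shunt. This plasma membrane transporter of dicarboxylates had 2.47 to 3.1 FPKM in CC and 3.36 to 3.79 FPKM in HFD, without overlap.

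Each energy and lipid list held few genes with an unadjusted p under 0.05, which 3.47% of all genes reached. The lists of cholesterol efflux and of fatty acid oxidation held a larger share than that. Of 73 genes of oxidative phosphorylation 48 were above 0, near the 67% of all genes, and Ndufa10 was higher and Ndufs6 lower at an unadjusted p under 0.05; the list's median was 0.0271, and -0.00818 with library medians equalized. Of 26 citric acid cycle genes 23 were above 0 and 1 had an unadjusted p under 0.05, the malic enzyme gene Me1. Cpt1a and Slc25a20, which bring fatty acids into mitochondria, were the members with an unadjusted p under 0.05 among 26 of fatty acid oxidation. Slc25a20 had 3.72 ± 0.198 FPKM in CC and 4.44 ± 0.32 FPKM in HFD (SD, n = 4 each), without overlap. Among 24 genes of cholesterol synthesis and uptake, Dhcr7, the last enzyme of one branch of the pathway, had 8.75 ± 0.431 FPKM in CC and 7.49 ± 0.746 FPKM in HFD (SD, n = 4 each), without overlap. Apod and Cyp27a1 were lower and Scarb1 higher at an unadjusted p under 0.05 among 19 genes of cholesterol efflux and lipid transport. Lepr, the leptin receptor, fell below the filter and was not tested. It had 0.303, 0.285, 0.608 and 0.447 FPKM in CC libraries and 0.925, 0.799, 1.12 and 1.07 FPKM in HFD libraries, with no overlap. Of 10 tested leptin, ghrelin and energy-balance receptor genes, 9 had a log2 change above 0, the direction opposite to Lepr. Their median was 0.127, and none had an unadjusted p under 0.05. The median was 0.00223 without the libraries with Rn45s above 0 and -0.042 without those above 1000 FPKM of Ttr.

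Among stress and hormone lists, those of ATF4 targets and of circadian clock genes held the most genes at an unadjusted p under 0.05. Both exceeded the 3.47% of all genes at that level. Slc7a11, the cystine importer, had 5.14 to 6.24 FPKM in CC and 6.49 to 8.3 FPKM in HFD, without overlap, while Mthfd2, of mitochondrial folate metabolism, had 2.38 to 3.34 FPKM in CC and 1.8 to 2.27 FPKM in HFD. Both are on the list of ATF4 targets, which follow amino acid supply, and their differences had opposite signs. Among the 19 measured members, the third with an unadjusted p under 0.05 was Aars, an aminoacyl-tRNA synthetase, higher in CC. Hspb8, a small heat shock protein of chaperone-assisted autophagy, had 4.41, 3.97, 5.13 and 4.14 FPKM in CC libraries, against 6.8, 5.3, 6.38 and 6.17 FPKM in HFD libraries (log2 change -0.40 ± 0.10, adjusted p = 0.667, limma). Of 23 circadian clock genes, Nfil3 and Bhlhe40 were higher and Dbp lower at an unadjusted p under 0.05, with ranges that overlapped. Of 20 glucocorticoid response genes 16 were above 0, as were 67% of all genes, and none had an unadjusted p under 0.05. Over the 47 lists, 22 had no member at that level and 13 had 1. Apart from the meningeal and choroid plexus lists, list medians lay between -0.186, for the neighbouring brain regions, and 0.136, for the glucocorticoid response.

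The second diet contrast asks whether chow and high-fat diet differ in the same genes under fasting. No gene passed the adjusted threshold between CC-IF and HFD-IF in limma, and 369 (2.88%) had an unadjusted p under 0.05. Over all 12792 genes the diet changes with and without fasting had a Pearson correlation of -0.029, a description across genes, which are not independent replicates, and 46% had the same sign. The meningeal median was -0.52 for CC minus HFD and 0.067 for CC-IF minus HFD-IF, where 13 of 21 members were above 0. None of the 15 meningeal genes with an unadjusted p under 0.05 without fasting reached it with fasting. Meningeal scores were -0.479 to -0.193 in CC-IF and -0.532 to -0.11 in HFD-IF libraries. All of these lay below the HFD scores of 0.112 to 0.483.

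Ptgds had 258, 295 and 232 FPKM in CC-IF libraries and 274, 234, 203 and 296 FPKM in HFD-IF libraries, a log2 change of 0.06. H2-Aa had 0.175, 0.439 and 0.519 FPKM in CC-IF libraries and 0.463, 0.152, 0.222 and 0.425 FPKM in HFD-IF libraries, a log2 change of 0.07. Both genes overlapped between the fasted groups. Col1a2 had 1.53 to 1.57 FPKM in CC-IF and 1.39 to 1.71 FPKM in HFD-IF, and Cd74 0.715 to 1.37 and 0.912 to 1.09 FPKM. Slc2a3 had 23.4 to 24.8 FPKM in CC-IF and 23.1 to 23.8 FPKM in HFD-IF. For these genes the fasted groups lay near the CC values, while HFD stood off. A test of the difference between the diet changes found no gene past the adjusted threshold (limma), with 432 (3.38%) at an unadjusted p under 0.05. The diet change of Ptgds with fasting minus that without was 1.09 (adjusted p = 0.984, limma), and that of H2-Aa was 0.95 with the same adjusted p.

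**Figure D5:**
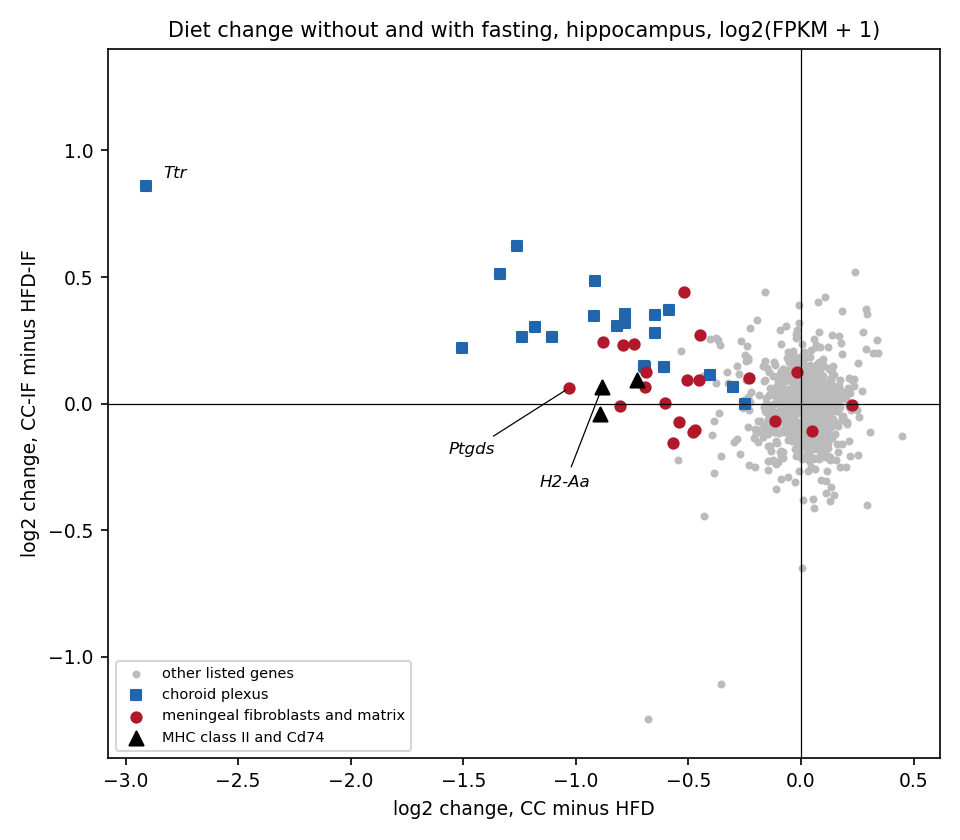
Log2 change CC minus HFD (x axis) against CC-IF minus HFD-IF (y axis) for the listed genes kept by the filter, on the log2(FPKM + 1) scale, without Rn45s; the contrasts share no library. Meningeal genes (median -0.52 on x and 0.067 on y), MHC class II genes and choroid plexus genes lie to the left of 0 and near or above 0 on the y axis, and the other genes cluster around 0.

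Liver of the same study gives the diet change in another tissue. In a model of both tissues over 9848 genes, with libraries taken as independent since columns are not tied to animals, 728 liver genes (7.39%) passed between CC and HFD. The diet change differed between hippocampus and liver for 144 genes (1.46%, limma, adjusted p under 0.05), 121 with a more positive and 23 with a more negative change in hippocampus. Across the 9848 genes the changes of the 2 tissues had a Pearson correlation of 0.00356, and 50% had the same sign. Of the 49 named hippocampal genes that could be tested, 4 differed between tissues, where 1.46% of all 9848 genes did. Many were named for their hippocampal change, which is part of this contrast, so the count partly follows from that choice. Ptgds had a log2 change of -1.03 in hippocampus and 0.66 in liver, a difference of -1.69 (adjusted p = 0.0233, limma). In liver Ptgds was low, at 2.33 ± 0.984 FPKM in CC and 1.28 ± 1.29 FPKM in HFD (SD, n = 4 each). Its change in liver did not pass (adjusted p = 0.141, limma). Gpr182 had -0.58 in hippocampus and 0.29 in liver, a difference of -0.88 (adjusted p = 0.00489, limma). Mrps16 and Pdk2 were higher in CC in hippocampus and lower in liver, with differences of 0.84 and 0.58. H2-Aa in liver had 25.5 ± 4.13 FPKM in CC and 21.2 ± 2.68 FPKM in HFD (SD, n = 4 each), a log2 change of 0.25, and its difference between tissues did not pass (adjusted p = 0.188, limma).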

How the data were processed

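RNA was sequenced from liver and hippocampus as paired reads of 125 nt from strand-specific, polyadenylated-RNA libraries, per the labels' protocols. The authors deposited 1 table of FPKM values. The submitters' processing notes list FastQC 0.11.9, Trimmomatic 0.39, TopHat2 2.1.1, Bowtie2 2.3.5.1 and GRCm38 (mm10) as build; the sources used here do not give the FPKM program, its annotation, or whether libraries were scaled to each other. Columns were assigned to groups by name, and 0 were left without a group. The series design states 32 samples, and 29 were analysed here.

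Values were taken as log2(FPKM + 1), so changes of low genes are understated. A limma 3.58.1 model (R 4.3.3) with an intensity trend and group as the only term was fitted to the 15 hippocampal libraries (11 residual degrees of freedom). Two-sided p-values were adjusted by Benjamini-Hochberg over 12792 genes at 0.05. The procedure was tested on simulated data. Between the libraries of a group Pearson's r was 0.968 to 0.988 and over 99.9% of values differed. No library is thus a copy of another, which does not show that each comes from its own animal. Each was counted as 1 replicate, following the submitters' description. FPKM holds no direct depth, so no counting interval is given. A ± gives the standard error of a log2 change or the SD of FPKM. Python 3.11.15 with pandas 2.3.3, numpy 2.4.6 and matplotlib 3.10.9 made tables and plots.

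The members, the 47 gene lists and the naming rule were chosen with earlier results of these data known. Named are genes past the threshold; the 12 highest and 12 lowest log2 changes with an unadjusted p under 0.01 and no overlap, leaving out predicted, Hist and Rn genes and transcripts under 300 nt; from each list, up to 3 members of lowest p among those at an unadjusted p under 0.05; and Sucnr1, Sdha to Sdhd, Slc25a10 and Aldh5a1. List members and a few others are given as values, and some list members are counted but not reported by name here. Alternatives covered the pseudocount, filter, trend, scaling, a block, Rn45s and left-out libraries. Gene positions come from GENCODE M21 on GRCm38.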

Additional observations from a re-analysis of the deposited data

Results flagged for a closer look

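In some groups of 4, one library stood far from the other 3, with a gap, relative to the group's range, above Dixon's 95% critical value. This held for 7 of 134 groups, and chance alone flags about 1 in 20. Choroid plexus genes gave 3 of the 7, in the libraries that Ttr also sets apart. Sostdc1 had 6.8 FPKM in CC library 2 and 0.629 to 1.12 in the other CC libraries, and 1.01 FPKM in HFD library 1 where the other HFD libraries had 7.51 to 8.38. The gene 1500015O10Rik had 14.8 FPKM in CC library 2 and 0.719 to 1.32 in the other CC libraries.

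Mia, an extracellular protein and a member of the ependyma list, had 4.83 FPKM in HFD library 0 and 2.39 to 2.63 in the others of its group. Mthfd2 had 1.81 FPKM in HFD library 1, against 2.21 to 2.27 in the other HFD libraries. Dbp, a clock output gene, had 9.57 FPKM in CC library 1 and 11.4 to 11.6 in the other CC libraries. Sdhb had 47.7 FPKM in HFD library 1 and 44.7 to 45.1 in the other HFD libraries.

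The diet change differed between hippocampus and liver in limma's test of the difference for 4 named genes. Many named genes were chosen for their hippocampal change, which is part of that difference. The hippocampal minus the liver log2 change was -1.69 for Ptgds, -0.875 for Gpr182, 0.84 for Mrps16 and 0.582 for Pdk2.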

How the results depend on the processing

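Depth estimates of 12.6 to 38.6 M fragments and values near or under 1 FPKM limit genes such as H2-Aa, H2-Ab1, Lum and Gpr182. The 2 calls between CC and HFD became 1 with a pseudocount of 0.1 or 0.5, with a filter above 0 (there 4930430J02Rik, higher in CC), with a filter at 5 or with quantile normalization, and 3 without the intensity trend (Col1a2 added). They became 0 with Snora, Snord and Mir genes kept, in the 8 libraries alone, with library medians equalized, with Rn45s as a term, without libraries with Rn45s above 0, and without those above 1000 FPKM of Ttr, a setting chosen after seeing the data; these had 375 to 698 genes at an unadjusted p under 0.05 in limma. Leaving out 1 library gave 294 to 827 such genes and 0 to 6 calls, with 6 without CC library 2 and 1 without HFD library 3. The column index as a replicate block gave 0 calls and 685 genes at an unadjusted p under 0.05. Deviations of same-numbered libraries correlated at -0.355, 0.4, 0.38 and 0.229, and those of differently numbered libraries at -0.527 to 0.286. These values do not settle whether the numbers mark pairs. The columns are not tied to animals, so the numbers are not taken as pairs.

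The log2 change of Ptgds stayed between -1.43 and -0.92 over 21 alternatives, with adjusted p from 0.00291 to 0.483, and that of H2-Aa between -1.77 and -0.69 over 20, with adjusted p from 0.0305 to 1. The direction turned for Sdhd with medians equalized (-0.0153), with quantile normalization (-0.0374), and when CC library 3 or HFD library 3 was left out, with a range of -0.0206 to 0.0495 over the 8 libraries left out in turn. Without libraries above 1000 FPKM of Ttr it turned for Lef1 (0.00483), Slc25a10 (0.00259) and Aldh5a1 (-0.0399). No other named gene changed sign. The test of the difference between diet changes gave 2 calls with a filter above 0 in place of 0. The hippocampus minus liver count of 144 was 79 with a filter at 5, 122 with a pseudocount of 0.1, and 68 to 169 when 1 hippocampal library was left out. The cause of these shifts was not tested.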
